A study of Homo sapiens with 6 samples.

Results

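The genes described here are the extracellular metalloproteinases and their tissue inhibitors, taken by a rule on the gene symbols of the deposited table. The rule uses no measured value, but the group was chosen with earlier results of these data known. It holds 22 matrix metalloproteinases (MMP), 22 ADAM genes, 19 ADAMTS genes, 5 ADAMTS-like genes and 4 tissue inhibitors of metalloproteinases (TIMP), together 72 of 60676 genes. All RNA came from NCI-H226, a human tumour line in culture whose labelled origin is pleural mesothelioma, so every value is that of 1 line. The 3 HC278 libraries came from cells given 500 nM of the compound for 24 h, and the 3 DMSO libraries from cells given the vehicle DMSO for the same time. The labels also write the compound as HC31278A, HC-31278 and HC31278-A, and the series title calls it a degrader of TEAD, the DNA-binding partner of YAP1 and WWTR1 at the end of the Hippo pathway. The comparison asks which of these transcripts changed under HC278.

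Metalloproteinases of this group are made as inactive precursors and cleave proteins outside the cell or at its surface by means of a zinc ion in the catalytic site. MMPs cut collagens, laminins and other matrix proteins, ADAMs are membrane proteins of which several release the outer parts of receptors and growth factors, and ADAMTS enzymes are secreted and act on proteoglycans, procollagens and von Willebrand factor. ADAMTS-like proteins have no protease domain, and TIMPs bind the active site of the enzymes. Members were taken by symbol, so protease activity of each ADAM gene is not implied, and ADAM5 and ADAM6 are annotated as pseudogenes. In mesothelioma and other tumours of serous membranes these genes are known for their part in invasion of the surrounding matrix.

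Total counts ran from 30486316 to 32646223 in the HC278 libraries and from 32532357 to 33181814 in the DMSO libraries. Mesothelial markers were present at unlike levels. MSLN (mesothelin) had a mean of 165 TPM under HC278 and 114 TPM with DMSO, which did not pass the test described below (edgeR adjusted p = 0.134). CALB2, UPK3B and ITLN1 also had higher means under HC278. The mean of LRRN4 was higher there through HC278 replicate 6 alone. LRRN4 had 2.10, 2.62 and 7.55 TPM in HC278 replicates 1, 2 and 6, against 3.82, 3.24 and 3.40 TPM with DMSO. WT1, PDPN and UPK1B had lower means under HC278 (7.78, 48.7 and 4.70 TPM) than with DMSO (9.44, 62.1 and 16.8 TPM). HAS1 was nearly absent, at 0.188 and 0.0281 TPM. Of the markers of other cell types, DCN, LUM, PDGFRA and FAP of fibroblasts summed to at most 0.102 TPM in any library, and PECAM1, CDH5, VWF and TEK of endothelium to at most 0.706 TPM. Libraries within a group differed along gene length, with HC278 replicate 6 and DMSO replicate 3 apart from the others: over all tested genes the Spearman correlation of a library's deviation from its group mean with gene model length was 0.52 in HC278 replicate 6 and 0.47 in DMSO replicate 3, against values between -0.49 and -0.34 in the other libraries. Whether replicates were grown as separate cultures is not stated, and p-values therefore reflect library-to-library spread, which may be technical.

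Counts were tested over the whole table with edgeR's quasi-likelihood test, and a gene is called changed when its Benjamini-Hochberg adjusted p over all tested genes is under 0.05. Of the 72 members, 48 had enough counts to be tested, and 13 of these changed, 7 higher and 6 lower under HC278. Over all 15510 tested genes 10.8% were called, 5.4% higher and 5.38% lower, and the share among the members was 27.1%. Against the same 10.8%, 3 of 8 tested mesothelial markers rose and 1 fell, and 0 of 4 keratins of simple epithelia passed. All 4 of these marker calls were lost without DMSO replicate 1, 2 or 3 (adjusted p from 0.0574 to 0.146), the 3 higher ones also without HC278 replicate 2 (0.0784 to 0.126), and 2 of those also without HC278 replicate 1 (0.0571 and 0.0789). Few genes of the whole table passed in these fits. Without DMSO replicates 1, 2 and 3 they were 164, 0 and 246 genes, and without HC278 replicates 1 and 2 they were 819 and 252. The same fits apply to the calls described below as lost. The median log2 fold change was 0.21 over the tested members and 0.05 over all tested genes. The values of HC278 and DMSO did not overlap in 22 of the 48 tested members, or 45.8%, whereas 34.6% of all tested genes had no overlap. HC278 was above in 15 of these members and below in 7, against 17% and 17.5% of all tested genes. MMP9 and MMP11 reached the filter on low counts through the HC278 libraries alone, and ADAM29 and MMP3 through the DMSO libraries alone. MMP9 and ADAM29 are among the 13 called members, each through the group where it is high. Both also passed without the filter (edgeR adjusted p = 0.000736 and 0.0428), a fit that called 12 of 66 members and 3.79% of genes. The 24 members not tested had at most 20 counts in any library, and 6 of them (MMP13, MMP27, ADAM2, ADAM7, ADAMTS8 and ADAMTS20) had 0 counts in all 6.

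**Figure D1:**
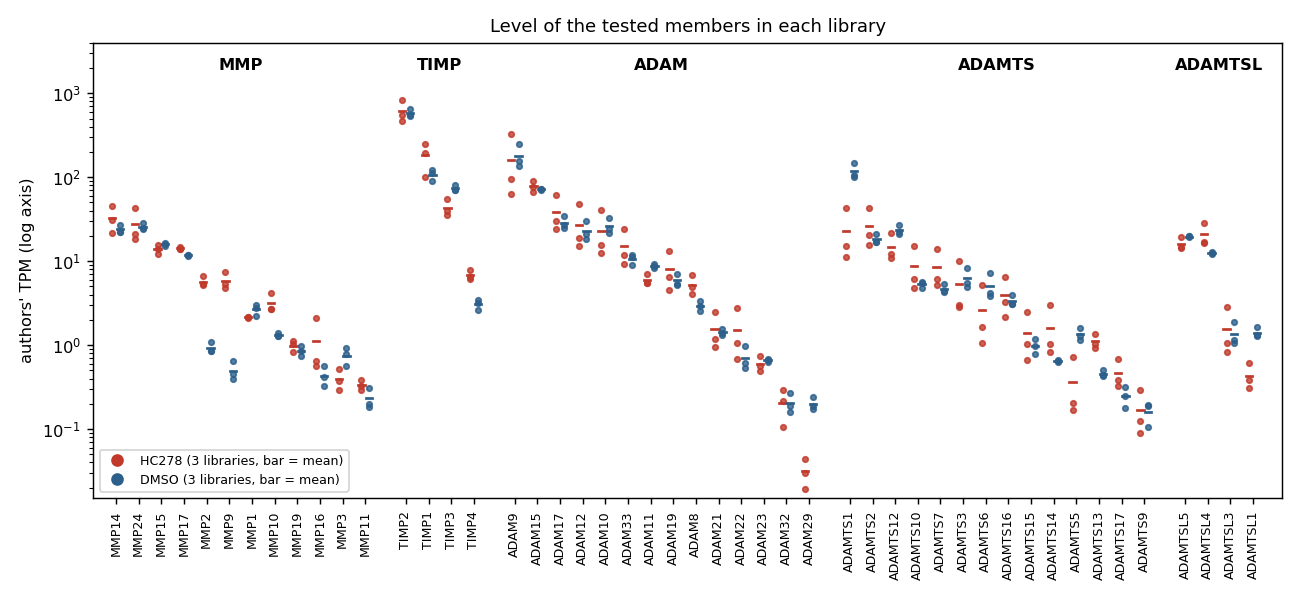
Level of each of the 48 tested members in the authors' TPM (log axis), grouped by family, with 1 point per library, HC278 left of DMSO, and bars at the means. TIMP2 and TIMP1 lie above every MMP, and ADAMTS1, MMP2 and MMP9 show clear gaps between the groups.

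Summed per length, in the authors' TPM, the TIMP genes lay above each of the other families, and TIMP2 made up 61.5% to 83.3% of their sum in the HC278 libraries and 73.2% to 79.2% in the DMSO libraries. Single genes did not all follow this order. TIMP4, at a mean of 4.94 TPM over all libraries, was below MMP14, MMP24, MMP15 and MMP17, and with DMSO the mean of ADAMTS1 was above those of TIMP1 and TIMP3. The 4 TIMP genes summed to 755, 783 and 986 TPM in HC278 replicates 1, 2 and 6, and to 730, 731 and 828 TPM in DMSO replicates 1, 2 and 3. The 22 MMP genes summed to 85.6, 97.5 and 143 TPM in the HC278 libraries and to 81.4, 83.9 and 90.6 TPM in the DMSO libraries. ADAM genes summed to 207, 268 and 625 TPM under HC278 and to 303, 328 and 454 TPM with DMSO, and ADAMTS-like genes to 39.3 ± 10.9 TPM under HC278 and 34.9 ± 1.13 TPM with DMSO (SD, n = 3 each). The ADAMTS sum was 56.9, 71.9 and 166 TPM under HC278, against 164, 172 and 229 TPM with DMSO. In each of the 5 families the HC278 and DMSO ranges of these sums overlapped. A single gene, ADAMTS1, made up 19.7%, 21.1% and 25.5% of that sum in the HC278 libraries, against 61.5%, 61.9% and 63.9% in the DMSO libraries. MMP2 and MMP9 together made up 11.6%, 10.9% and 9.84% of the MMP sum under HC278, against 1.59%, 2.05% and 1.38% with DMSO.

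**Figure D2:**
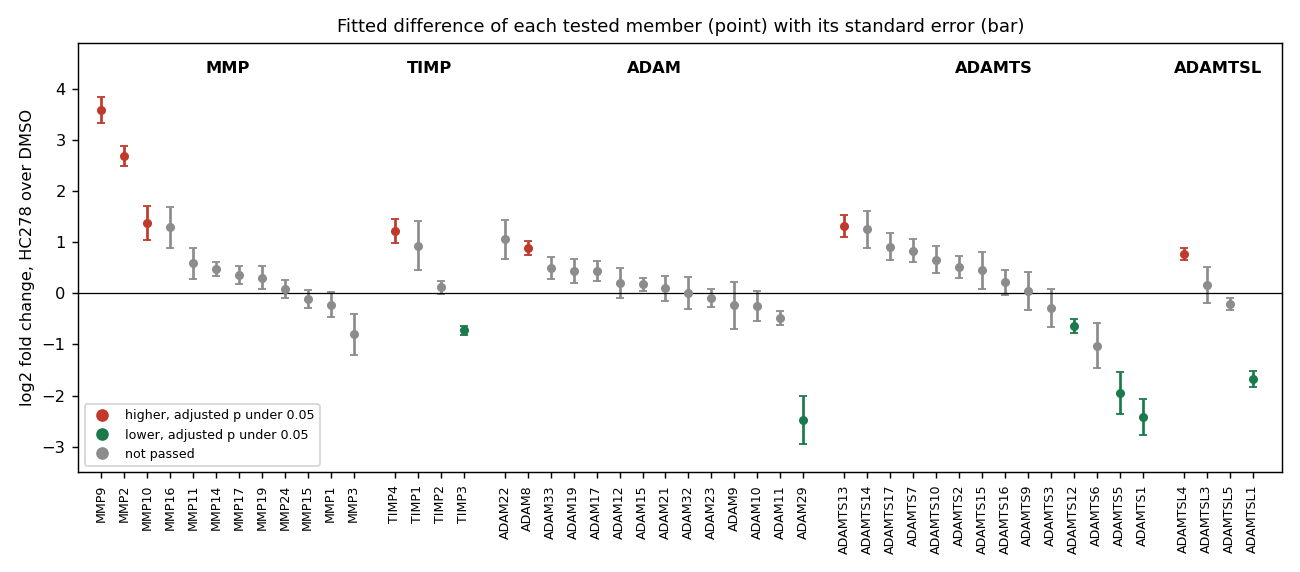
Fitted log2 fold change of each tested member, HC278 over DMSO, ordered by size within its family, with its standard error as a bar. MMP9 and MMP2 lie at 3.58 and 2.68, ADAM29, ADAMTS1 and ADAMTS5 at -2.48, -2.42 and -1.95, and 35 members, drawn in grey, did not pass.

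The gelatinases rose most. MMP9 (ENSG00000100985; gelatinase B, which cuts denatured collagen and type IV collagen) spans bases 46008908 to 46016561 of chromosome 20 (hg38, plus strand). It had 4.45, 4.44 and 4.33 CPM (counts scaled to TMM-adjusted library size) in HC278 replicates 1, 2 and 6, whereas DMSO replicates 1, 2 and 3 had 0.344, 0.483 and 0.266 CPM. All HC278 libraries were above all DMSO libraries, and the HC278 values had an SD of 0.0690 CPM. MMP9 reached the filter on low counts through the HC278 libraries alone, where it is high. The log2 fold change was 3.58 (SE 0.25, edgeR adjusted p = 0.00393), or 12.0-fold. In raw reads this was 415 counts over the HC278 libraries against 36 over the DMSO libraries, a ratio at equal depth of 12.0 with an exact interval (95%) of 8.5 to 17.3 for counting error only. MMP2 (ENSG00000087245; gelatinase A, made by many mesenchymal cells) spans bases 55389700 to 55506691 of chromosome 16 (plus strand). It had 9.68, 8.84 and 7.83 CPM under HC278, against 1.31, 1.63 and 1.15 CPM with DMSO, again with no overlap. Its log2 fold change was 2.68 (SE 0.19, adjusted p = 0.00393), or 6.41-fold. Per length the pair stood at like levels, 5.70 ± 0.819 TPM of MMP2 and 5.84 ± 1.37 TPM of MMP9 under HC278, against 0.926 ± 0.132 TPM of MMP2 and 0.496 ± 0.131 TPM of MMP9 with DMSO (SD, n = 3). Both calls passed in every setting tried except the fit without DMSO replicate 2, where no gene of the table passed and both had an adjusted p of 0.0502. In bulk RNA more transcript per cell and more cells of an expressing kind cannot be told apart. Leukocytes are a known source of MMP9, and 8 immune markers summed to 91.4 to 118 TPM in the HC278 libraries, against 54.0 to 62.4 TPM in the DMSO libraries. Most of that sum was CD68, a lysosomal protein, at a mean of 99.1 and 55.7 TPM. The leukocyte marker PTPRC averaged 0.0599 and 0.0212 TPM, and CD3E and MPO were at 0 in every library. CD68 and CD14 rose by the test and the other 1 of 3 tested immune markers did not pass, beside 10.8% called among all tested genes. The part of these markers in the MMP9 values was not tested. Both marker calls were lost without HC278 replicate 2 (adjusted p = 0.0625 for CD68 and 0.130 for CD14) and without DMSO replicate 1 (0.0797 and 0.151), 2 (0.0811 and 0.114) or 3 (0.0703 and 0.148), and that of CD14 also without HC278 replicate 1 (0.0937) and without the filter (0.0589).

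**Figure D3:**
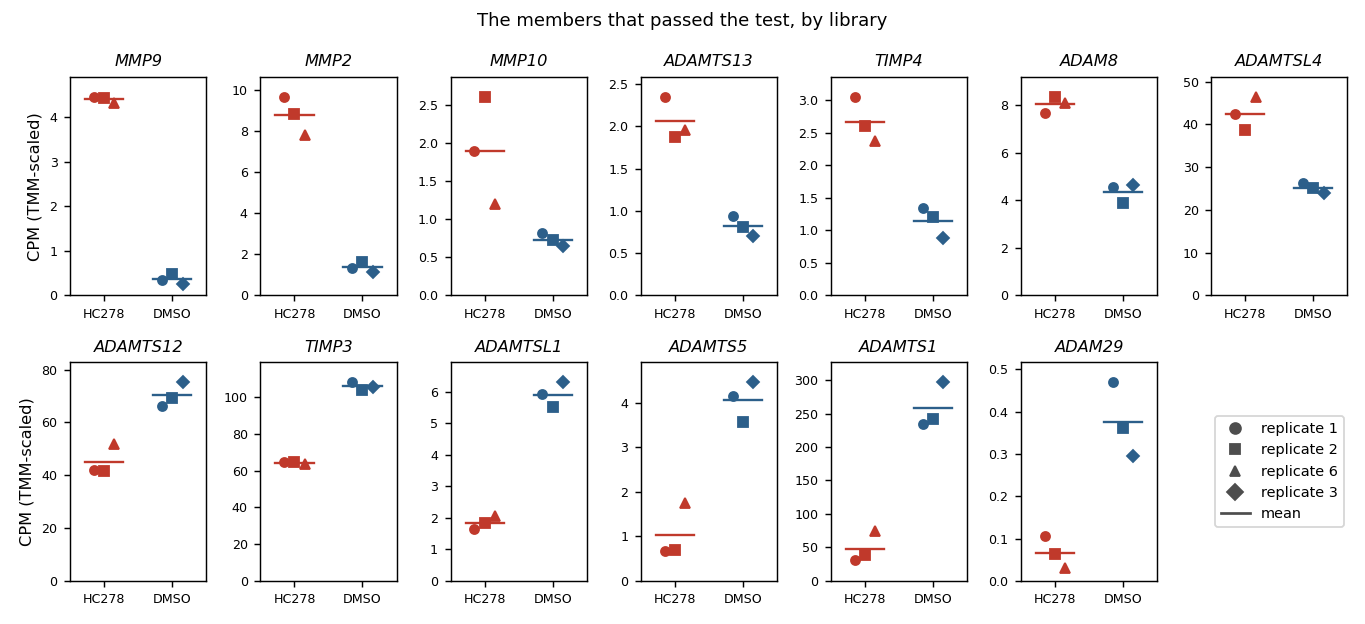
CPM of the 13 members that passed the test, 1 panel per gene with its own linear axis from 0, HC278 left of DMSO, 1 symbol per replicate number and lines at the means. In each panel the groups do not overlap. MMP9 and TIMP3 have the tightest HC278 values, and HC278 replicate 6 (triangle) lies toward the DMSO libraries for MMP10, ADAMTS5 and ADAMTS1.

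MMP10 (stromelysin-2, which cuts a broad range of matrix proteins and activates other MMPs) was the only called gene of the MMP cluster on chromosome 11. The cluster holds 9 members within 435 kb, from 102520508 to 102955732, and 3 of them, MMP10, MMP1 and MMP3, were tested. MMP10 (ENSG00000166670, chromosome 11, 102770502 to 102780628, minus strand) had 1.89, 2.60 and 1.20 CPM under HC278, against 0.814, 0.725 and 0.650 CPM with DMSO. The groups did not overlap, and the log2 fold change was 1.37 (SE 0.33, adjusted p = 0.0490). This call stood at the threshold. It did not pass with limma-voom (adjusted p = 0.0655), without the filter (0.0713), without HC278 replicate 1 (0.115) or 2 (0.156), or without DMSO replicate 1 (0.157), 2 (0.191) or 3 (0.195). MMP1, the interstitial collagenase, lies 9290 bases from MMP10 and had 1.65, 1.49 and 1.08 CPM under HC278 and 1.44, 1.90 and 1.57 CPM with DMSO, which overlap (log2 -0.22, adjusted p = 0.629). MMP3, stromelysin-1, had 0.386, 0.190 and 0.175 CPM under HC278 and 0.344, 0.544 and 0.414 CPM with DMSO (log2 -0.80, adjusted p = 0.268). The other members of the cluster (MMP7, MMP20, MMP27, MMP8, MMP12 and MMP13) had at most 2 counts in any library. MMP1, MMP3 and the untested genes of the cluster were picked for their position, after their values were seen.

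The 4 most abundant MMPs per length, MMP14, MMP24, MMP15 and MMP17, are bound to the membrane, and 0 of them passed. MMP14 (MT1-MMP, which with TIMP2 activates the MMP2 precursor) had 38.8, 48.5 and 50.6 CPM under HC278, against 33.0, 32.1 and 34.4 CPM with DMSO. The groups did not overlap, and the test gave a log2 fold change of 0.47 (SE 0.13, adjusted p = 0.0786). Without HC278 replicate 6 MMP14 passed (log2 0.39, adjusted p = 0.0370), as it did with the trend on gene length taken out (log2 0.48, adjusted p = 0.0386). Those fits called 40.6% and 17.4% of all tested genes. MMP24, a transmembrane MMP, had 32.3, 32.2 and 47.4 CPM under HC278 and 34.5, 34.7 and 36.0 CPM with DMSO, with an overlap (log2 0.09, adjusted p = 0.804). Its value is uncertain, because MMP24OS runs antisense across it, holding 133% of its counts, and the strand setting of the counting is not given in the sources used here. MMP15, also a transmembrane MMP, had 23.7, 18.1 and 16.5 CPM under HC278 and 22.6, 22.1 and 18.5 CPM with DMSO (log2 -0.12, adjusted p = 0.738). The other 4 tested MMPs (MMP11, MMP16, MMP17 and MMP19) had log2 fold changes from 0.31 to 1.29 and did not pass.

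Of the inhibitors, TIMP3 fell and TIMP4 rose. TIMP3 (ENSG00000100234, chromosome 22, 32801701 to 32863043, plus strand) binds to the matrix and inhibits several ADAM and ADAMTS enzymes beside the MMPs. It had 64.4, 64.6 and 63.4 CPM under HC278, against 108, 104 and 106 CPM with DMSO. Neither group spread by more than 2.05 CPM (SD), the groups did not overlap, and the log2 fold change was -0.72 (SE 0.09, adjusted p = 0.00910). TIMP4 (ENSG00000157150, chromosome 3, 12153068 to 12158912, minus strand), an inhibitor known best from heart and fat, had 3.05, 2.60 and 2.37 CPM under HC278, against 1.35, 1.21 and 0.886 CPM with DMSO (log2 1.22, SE 0.23, adjusted p = 0.0264). Per length TIMP3 averaged 43.2 ± 10.4 TPM under HC278 and 73.9 ± 5.31 TPM with DMSO, and TIMP4 averaged 6.82 ± 0.954 TPM under HC278 and 3.05 ± 0.427 TPM with DMSO (SD, n = 3). Both calls were lost without HC278 replicate 2 (adjusted p = 0.0633 for TIMP3 and 0.103 for TIMP4) and without DMSO replicate 1 (0.0750 and 0.0918), 2 (0.0760 and 0.126) or 3 (0.0649 and 0.108), and that of TIMP4 also without HC278 replicate 1 (0.0786). Over all alternative settings the log2 fold change ran from -0.76 to -0.71 for TIMP3 and from 1.06 to 1.34 for TIMP4.

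TIMP1 and TIMP2, the secreted inhibitors present at the highest levels, did not pass. TIMP2 had 1044, 1085 and 1159 CPM under HC278 and 992, 989 and 1061 CPM with DMSO (log2 0.11, SE 0.12, adjusted p = 0.625). TIMP1 had 144, 98.8 and 36.8 CPM in HC278 replicates 1, 2 and 6, and 57.7, 51.5 and 37.4 CPM in the DMSO libraries. HC278 replicates 1 and 2 were above every DMSO library and HC278 replicate 6 was below them all, and the test gave a log2 fold change of 0.93 (SE 0.48, adjusted p = 0.279). Without HC278 replicate 6 TIMP1 passed as higher (log2 1.31, SE 0.22, adjusted p = 0.00673), in a fit that called 40.6% of all tested genes. The log2 ratio of HC278 replicate 6 to the mean of HC278 replicates 1 and 2 was -1.72 for TIMP1, and DMSO replicate 3 stood at -0.55 against DMSO replicates 1 and 2. Over the 48 tested members these ratios had Spearman correlations of 0.67 and 0.75 with gene model length, over libraries that all members share. With the length trend taken out TIMP1 stood at 0.70 and did not pass either (adjusted p = 0.205).

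**Figure D4:**
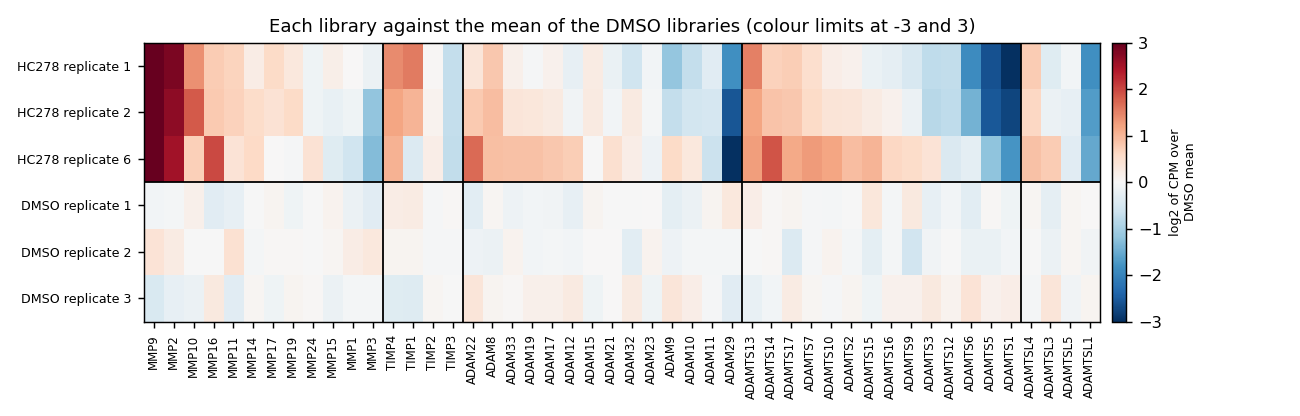
Log2 of each library's CPM over the mean of the DMSO libraries for the 48 tested members, families separated by lines, HC278 libraries above DMSO libraries, colours limited at -3 and 3. MMP9, MMP2 and ADAMTS13 are red in all HC278 libraries and TIMP3 and ADAMTSL1 blue, whereas TIMP1 and ADAM9 change colour in HC278 replicate 6.

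Among the ADAM genes, ADAM8 rose and ADAM29 fell. ADAM8 (ENSG00000151651, chromosome 10, 133262420 to 133276868, minus strand), a membrane protease known from leukocytes and invasive tumours, had 7.68, 8.33 and 8.10 CPM under HC278, against 4.57, 3.87 and 4.64 CPM with DMSO. The groups did not overlap (log2 0.88, SE 0.14, adjusted p = 0.0157). ADAM29, a gene known mainly from testis (ENSG00000168594, chromosome 4, 174829668 to 174978180, plus strand), was close to the limit of detection. It reached the filter on low counts through the DMSO libraries alone, where it is higher. It had 0.105, 0.0634 and 0.0292 CPM under HC278, against 0.470, 0.362 and 0.295 CPM with DMSO (log2 -2.48, SE 0.47, adjusted p = 0.0259). In raw reads these were 6 counts over the HC278 libraries and 37 over the DMSO libraries, a ratio at equal depth of 0.168 with an exact interval (95%) of 0.0581 to 0.402 for counting error only, and the fitted fold change depends on the prior count at this depth. Both calls were lost without HC278 replicate 2 (adjusted p = 0.0815 for ADAM8 and 0.118 for ADAM29) and without DMSO replicate 1 (0.0867 and 0.120), 2 (0.102 and 0.119) or 3 (0.0789 and 0.0894).

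The abundant ADAM sheddases did not pass. ADAM9 was the most abundant ADAM per length, with 62.3, 94.7 and 328 TPM in HC278 replicates 1, 2 and 6 and 136, 154 and 249 TPM in DMSO replicates 1, 2 and 3. On the CPM scale it had 175, 236 and 578 under HC278 and 315, 348 and 503 with DMSO, so that HC278 replicates 1 and 2 were below every DMSO library and HC278 replicate 6 above them (log2 -0.24, SE 0.47, adjusted p = 0.804). Without HC278 replicate 6 ADAM9 passed as lower (log2 -0.93, adjusted p = 0.0235), in a fit that called 40.6% of all tested genes. ADAM10, which cuts Notch receptors and cadherins, followed the same arrangement with 79.2, 88.0 and 161 CPM under HC278 and 115, 124 and 150.0 CPM with DMSO (log2 -0.24, adjusted p = 0.667). It passed as lower in the same fit without HC278 replicate 6 (log2 -0.64, adjusted p = 0.0138), and was picked here after its values were seen. ADAM17, which releases TNF and ligands of the EGF receptor, had 105, 116 and 167 CPM under HC278 and 88.6, 92.0 and 106 CPM with DMSO (log2 0.44, SE 0.20, adjusted p = 0.233). IAH1 runs antisense across ADAM17 and holds 40.5% of its counts. ADAM17 passed as higher with the length trend taken out (log2 0.42, adjusted p = 0.0180), in a fit that called 17.4% of all tested genes. ADAM15, a protease that also binds integrins, had 176, 178 and 147 CPM under HC278 and 158, 150.4 and 136 CPM with DMSO (log2 0.17, adjusted p = 0.455). The other 8 tested ADAM genes had log2 values from -0.48 (ADAM11) to 1.05 (ADAM22) and did not pass.

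ADAMTS1 had the largest fall in absolute level of all members. ADAMTS1 (ENSG00000154734, chromosome 21, 26835755 to 26845409, minus strand), a protease of versican and aggrecan, had 31.5, 37.9 and 75.1 CPM under HC278, against 235, 242 and 297 CPM with DMSO. The groups did not overlap, with a log2 fold change of -2.42 (SE 0.35, adjusted p = 0.0126). Per length it had 11.2, 15.2 and 42.5 TPM under HC278, against 101, 107 and 146 TPM with DMSO. ADAMTS5 (ENSG00000154736, chromosome 21, 26917922 to 26967088, minus strand), the main aggrecan protease of cartilage in mice, is its neighbour on the same strand with 72512 bases between them. ADAMTS5 had 0.666, 0.697 and 1.75 CPM under HC278, against 4.16, 3.56 and 4.46 CPM with DMSO (log2 -1.95, SE 0.41, adjusted p = 0.0334). In both genes HC278 replicate 6 was the highest of its group and still below every DMSO library. Without HC278 replicate 6 ADAMTS1 stood at -2.89 and ADAMTS5 at -2.57 on the log2 scale. Both calls were lost without HC278 replicate 2 (adjusted p = 0.0707 for ADAMTS1 and 0.126 for ADAMTS5) and without DMSO replicate 1 (0.0635 and 0.126), 2 (0.0688 and 0.119) or 3 (0.0671 and 0.132), and that of ADAMTS5 also without HC278 replicate 1 (0.0828) and with library size alone as the scaling (0.0620).

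ADAMTS12 fell as well and ADAMTS13 rose. ADAMTS12 (ENSG00000151388, chromosome 5, 33523535 to 33892019, minus strand), a secreted protease of cartilage oligomeric matrix protein, had 42.0, 41.6 and 51.7 CPM under HC278, against 66.3, 69.2 and 75.2 CPM with DMSO, with no overlap (log2 -0.64, SE 0.13, adjusted p = 0.0323). ADAMTS13 (ENSG00000160323, chromosome 9, 133414358 to 133459402, plus strand), which cuts von Willebrand factor in blood, had 2.35, 1.87 and 1.96 CPM under HC278, against 0.939, 0.816 and 0.709 CPM with DMSO (log2 1.32, SE 0.21, adjusted p = 0.0162). The value of ADAMTS13 is uncertain, since the antisense neighbour REXO4 shares its span and holds 3188% of its counts. Both calls were lost in each fit that left out 1 library other than HC278 replicate 6, with adjusted p values from 0.0931 to 0.146 for ADAMTS12 and from 0.0550 to 0.108 for ADAMTS13, and that of ADAMTS12 also with library size alone as the scaling (0.104). ADAMTS2, which removes the amino-terminal propeptide of procollagens, had 54.2, 64.1 and 94.2 CPM under HC278 and 49.3, 47.6 and 52.6 CPM with DMSO, without overlap (log2 0.51, SE 0.22, adjusted p = 0.198). It passed as higher with the length trend taken out (log2 0.49, adjusted p = 0.0249), in a fit that called 17.4% of all tested genes. The other 9 tested ADAMTS genes had log2 fold changes from -1.03 (ADAMTS6) to 1.25 (ADAMTS14) and did not pass.

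The ADAMTS-like genes moved in both directions. ADAMTSL1, also called punctin (ENSG00000178031, chromosome 9, 17906563 to 18910950, plus strand), had 1.65, 1.84 and 2.05 CPM under HC278, against 5.92, 5.50 and 6.29 CPM with DMSO. The groups were well apart, with a log2 fold change of -1.67 (SE 0.16, adjusted p = 0.00518), and the call was lost only without DMSO replicate 2 (0.0527). ADAMTSL4 (ENSG00000143382, chromosome 1, 150549369 to 150560937, plus strand), which binds fibrillin microfibrils, had 42.5, 38.7 and 46.4 CPM under HC278, against 26.2, 25.0 and 24.0 CPM with DMSO (log2 0.76, SE 0.12, adjusted p = 0.0139). Its call was lost without HC278 replicate 2 (adjusted p = 0.0545) and without DMSO replicate 1 (0.0829), 2 (0.102) or 3 (0.0911). ADAMTSL5 had 20.9, 18.8 and 17.7 CPM under HC278 and 23.2, 22.9 and 20.5 CPM with DMSO (log2 -0.22, adjusted p = 0.322). ADAMTSL3 was at 0.16 on the log2 scale (adjusted p = 0.824), with -0.27 when HC278 replicate 6 was left out. ADAMTSL2, picked after its values were seen, was too low for the filter, with 20, 14 and 9 counts under HC278 and 2, 6 and 2 counts with DMSO. Tested without the filter it had a log2 fold change of 2.13 and an adjusted p of 0.0976.

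Promoters of 4 called members are shown, the 2 inhibitors and 1 protease in each direction, because HC278 is labelled a TEAD degrader and AP-1 and ETS factors are known regulators of MMP promoters. RefSeq promoters (GRCh38.p14) were found for 43 of the 72 members, among them 9 of the 13 called ones, and not for MMP2, MMP9, ADAMTS1 or ADAMTS5. The 4 below were picked with their matches in view and run 5′ to 3′ from base 240 to base 41 upstream of the RefSeq start. Capitals mark matches on either strand to GGAATG (TEAD), TGANTCA (AP-1) or AGGAAG (ETS factors).
MMP10: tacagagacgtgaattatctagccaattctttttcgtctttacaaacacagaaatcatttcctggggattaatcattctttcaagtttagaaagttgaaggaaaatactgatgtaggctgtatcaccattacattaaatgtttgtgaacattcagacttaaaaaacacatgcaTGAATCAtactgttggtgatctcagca
TIMP4: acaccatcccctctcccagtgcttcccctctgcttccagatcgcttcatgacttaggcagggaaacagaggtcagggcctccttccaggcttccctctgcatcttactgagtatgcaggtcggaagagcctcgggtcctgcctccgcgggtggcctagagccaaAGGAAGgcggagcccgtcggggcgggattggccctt
ADAMTS12: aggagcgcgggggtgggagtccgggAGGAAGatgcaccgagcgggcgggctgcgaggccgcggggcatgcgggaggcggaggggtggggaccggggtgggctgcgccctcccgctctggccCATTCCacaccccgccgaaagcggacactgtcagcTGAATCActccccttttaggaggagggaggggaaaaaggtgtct
TIMP3: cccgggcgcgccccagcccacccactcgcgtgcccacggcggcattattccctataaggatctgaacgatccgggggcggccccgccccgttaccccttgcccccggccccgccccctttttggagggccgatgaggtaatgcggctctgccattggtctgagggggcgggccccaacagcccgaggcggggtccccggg
These are chr11:102780669-102780868, chr3:12158953-12159152 and chr5:33892031-33892230, all on the minus strand, and chr22:32801465-32801664 on the plus strand.

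ADAMTS12, which fell, held a match to each of the 3 motifs, the TEAD one at bases 119 to 114 upstream and the AP-1 one at bases 84 to 78. MMP10, which rose, held the AP-1 letters at bases 67 to 61. TIMP4 held an ETS match at bases 76 to 71, and TIMP3 held none of the 3 in the 250 bases searched. Of the 5 higher called members with a promoter, 0 held the TEAD letters and 1 the AP-1 letters, and of the 4 lower ones 1 held each. The ETS letters were in 2 of the 5 higher and 1 of the 4 lower. For 3 of these 9 promoters the RefSeq start lies far from the gene start in the deposited table, by 8009 bases for ADAMTS13, 88690 for ADAM29 and 567590 for ADAMTSL1. In the same 250 bases the TEAD letters were in 9.39% of the promoters of tested genes, the AP-1 letters in 4.12% and the ETS letters in 27.6%. No match of 1 motif overlapped another in these 4 promoters, and a match is a description of the letters and not a shown site. Among the members that did not pass, ADAM17 and ADAMTS6 held the TEAD letters. MMP7, matrilysin, a gene of the same cluster as MMP10, holds AP-1 letters at the same distance, at bases 67 to 61 upstream. It had 0 or 1 count in every library. MMP20, also of this cluster and also at 0 or 1 count in every library, holds AP-1 letters at another distance, bases 112 to 106. The stretch around the MMP7 letters is chr11:102530788-102530834 on the minus strand.
MMP7: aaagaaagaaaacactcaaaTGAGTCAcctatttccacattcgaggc
The base composition of the shown promoters differed as well, with 34.4% G and C in MMP10, 62.8% in TIMP4, 68.4% in ADAMTS12 and 72.4% in TIMP3 over the 250 bases, against a median of 58.0% over all RefSeq promoters in the table.

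Among other genes of the pathway, 4 of 16 tested activators and partners rose and 1 fell. Over all 15510 tested genes 10.8% were called, 5.4% higher and 5.38% lower. PLAU, the urokinase that makes plasmin and so leads to activation of MMP precursors, rose to 25.4 ± 6.61 CPM under HC278, against 9.67 ± 0.295 CPM with DMSO (log2 1.39, SE 0.21, adjusted p = 0.0143). PLAT, the tissue plasminogen activator, fell to 9.90 ± 1.44 CPM, against 19.9 ± 1.16 CPM (log2 -1.01, SE 0.15, adjusted p = 0.0129). RHBDF1, 1 of the 2 iRhom proteins that escort ADAM17 to the surface, rose to 56.4 ± 2.11 CPM, against 36.5 ± 1.89 CPM (log2 0.63, adjusted p = 0.0166). The others that rose were RHBDF2, the second iRhom, at 0.65 and TSPAN10 at 1.04 on the log2 scale, TSPAN10 being uncertain, since NPLOC4 runs antisense across it and holds 801% of its counts. RHBDF2 and TSPAN10 were named after their values were seen. The median log2 fold change of this list was 0.14. All 5 calls were lost without HC278 replicate 2 (adjusted p from 0.0578 to 0.110) and without DMSO replicate 1, 2 or 3 (0.0718 to 0.139), and that of TSPAN10 also without HC278 replicate 1 (0.0691). RHBDF1 and RHBDF2 did not pass without the filter (0.0553 and 0.0591), nor RHBDF2 with library size alone (0.0826).

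Of 3 tested metzincin proteases outside the members' families, BMP1, the procollagen C-proteinase, rose to 72.5 ± 10.1 CPM under HC278, against 38.6 ± 0.600 CPM with DMSO (log2 0.91, SE 0.13, adjusted p = 0.0119), and the other 2 did not pass. Neither of the 2 tested inhibitors outside the TIMP family passed: RECK, a membrane inhibitor of MMPs, stood at 0.10 and TFPI2 at 0.24 on the log2 scale, both named after their values were seen. Of 15 tested matrix substrates, LAMB3, a laminin chain of epithelial basement membranes, rose to 3.90 ± 0.408 CPM, against 1.75 ± 0.0345 CPM (adjusted p = 0.0119), 0 fell and 14 did not pass. Of 20 tested proteins that ADAM enzymes shed, TNFRSF1A, a TNF receptor, rose to 283 ± 44.4 CPM, against 171 ± 11.5 CPM. NRG1, a ligand of ERBB receptors, fell to 26.3 ± 1.59 CPM, against 52.7 ± 2.35 CPM (adjusted p = 0.00639), and AXL, a receptor kinase, fell to 277 ± 16.8 CPM, against 420.0 ± 12.5 CPM. These counts stand beside 10.8% called among all tested genes, and whether any list differs from that share was not tested. The calls of BMP1 and LAMB3 were lost without HC278 replicate 2 (adjusted p = 0.0552 and 0.0710) and without DMSO replicate 1 (0.0829 and 0.0823), 2 (0.0900 for both) or 3 (0.0767 and 0.0768). TNFRSF1A and AXL passed in no fit that left out 1 library other than HC278 replicate 6, with adjusted p values from 0.0916 to 0.163 and from 0.0509 to 0.131, nor without the filter (0.0657 and 0.0583). NRG1 was lost without DMSO replicate 1 (0.0543) or 2 (0.0591) and with the length trend taken out (0.0520).

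**Figure D5:**
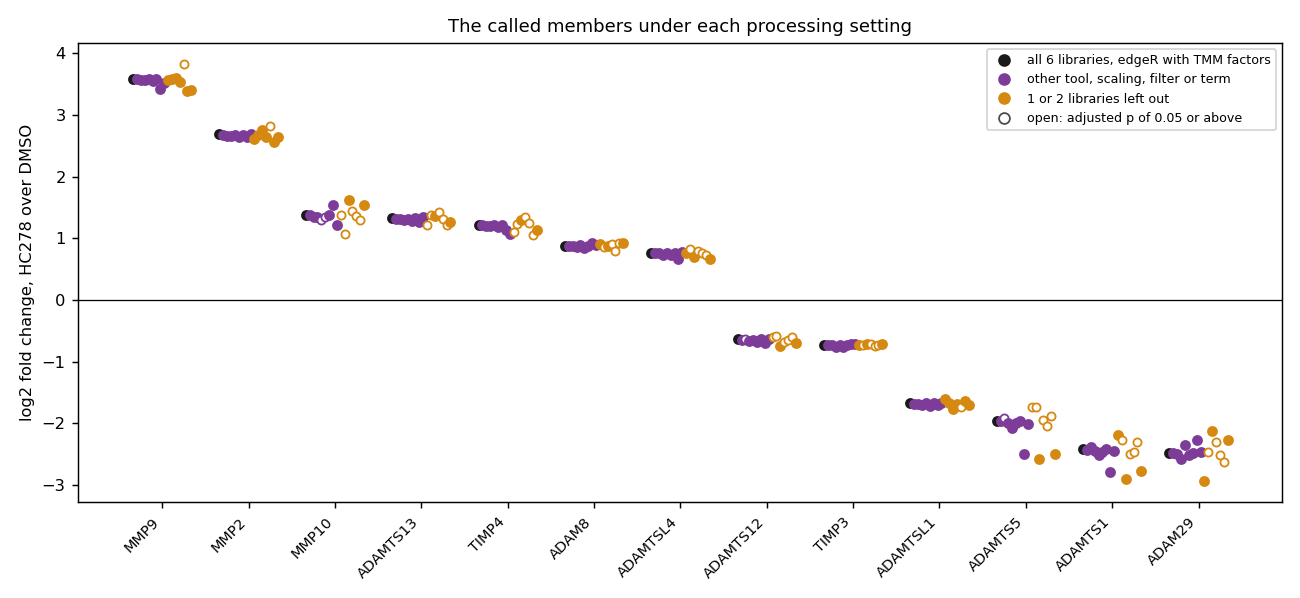
Log2 fold change of the 13 called members, HC278 over DMSO, under each of 16 processing settings, in black with all 6 libraries and edgeR, in purple with another tool, scaling, filter or term, and in orange with 1 or 2 libraries left out. Open circles have an adjusted p of 0.05 or above. Each gene, whose groups do not overlap with all 6 libraries, keeps its sign in all settings.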

How the data were processed

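Per the labels, libraries were made with a stranded Illumina mRNA kit from Trizol RNA of NCI-H226 cells. The submitters' processing notes name the build (hg38). Aligner, counter, strand setting and annotation: not given in the sources used here. The deposited table gives raw counts per gene, per the file headers, with RPKM and TPM values that the authors made from them. A further deposited signal named CPM, on an adjusted library size, was not used.

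Tests used the counts: edgeR 4.0.16 in R 4.3.3, glmQLFit and glmQLFTest, TMM factors (0.903 to 1.12), filterByExpr with a minimum count of 10, all 6 libraries, no covariate. SE was taken as |log2 fold change|/√F. CPM are over TMM-scaled library size, and 3 counts are 0.0904 to 0.0984 CPM. TPM served for levels between genes, and count over RPKM for gene model length (loess span 0.5). The test was run on simulated data first. DESeq2 1.42.0 and limma 3.58.1 were alternatives. Overlaps came from the table's coordinates. The planned search of protein motifs was not run.

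Groups and replicate numbers are from sample titles. Members and lists were chosen with earlier results of these data known. Named are all called members, the TIMPs, the 3 most abundant members of each family and up to 3 called genes per list; others are given by range or position, or are said to have been picked after their values were seen. Within-group chi-square per degree of freedom was 4.02 to 313, so no libraries were merged for the tests. Counts were summed within a group only for the count ratios of MMP9 and ADAM29, whose intervals leave out this spread between libraries.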

Additional observations from a re-analysis of the deposited data

How the results depend on the processing

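With all 6 libraries 1672 genes (10.8%) and 13 of 48 tested members changed, 7 members higher and 6 lower. DESeq2 called 2616 genes (15.3%) and 17 of 51 members. With the length trend taken out 2691 genes (17.4%) and 21 of 48 members were called, 15 members as higher. Library size alone called 8.76% of genes and 11 of 48 members, 4 as lower. Leaving out 1 library at a time gave 0 to 6413 genes, 0 to 14 members higher and 0 to 11 lower, the lowest without DMSO replicate 2 and the highest without HC278 replicate 6. In that highest fit 40.6% of genes and 25 of 49 members were called. Without DMSO replicate 2, 18 members and 2864 genes were under 0.05 before adjustment (edgeR; no other tool was run on 5 libraries). Without both DMSO replicate 3 and HC278 replicate 6, 6322 genes (40.4%) and 27 of 49 members were called, 16 members higher and 11 lower. With the replicate block, 8172 genes (52.7%) and 30 of 48 members were called, 19 members higher and 11 lower. The groups share only numbers 1 and 2, whose deviations correlated at 0.52 and 0.18, and the labels do not say what the numbers mark. In the block fit DMSO replicate 3 and HC278 replicate 6 each stand alone in a block and add nothing to the contrast. Its fold changes therefore rest on the same libraries as the fit without both, and these settings are not separate checks. The cause of these shifts was not tested. The 13 called members kept their sign under all 15 alternatives. Their groups do not overlap, so a fit without some libraries could hardly have reversed them. Of the called members, the TIMPs and the 3 most abundant members of each family, those reversed were ADAM9 without HC278 replicate 1 (0.060), ADAMTSL3 and MMP24 with the replicate block (-0.036 and -0.10), without HC278 replicate 6 (-0.27 and -0.12) and without both libraries (-0.035 and -0.10), none of which passed as reversed. Over the fits without 1 library ADAM9 ran from -0.93 to 0.060, ADAMTSL3 from -0.27 to 0.38 and MMP24 from -0.12 to 0.18. Less abundant members that did not pass also changed sign in some alternatives (ADAM12, ADAM21, ADAM32, ADAMTS9, ADAMTS15 and ADAMTS16), without passing there. Depth limits the 24 members not tested.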
